A study of Mus musculus with 77 samples.

Results

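The regions described here were acetylated at H3K27 in naive B cells and lost their place among the strongest peaks after 24 h of culture with CpG. They were chosen from the deposited H3K27ac peak lists, 12 from 0 h and 12 from 24 h. Each list was cut to its 1336 strongest peaks by total signal, 1336 being the length of the shortest list. Autosomal bases covered in at least 9 of the 12 cut 0 h lists were merged into regions of 500 bp or more, which gave 1175 regions. Of these, 164 were touched by peaks of at most 2 of the 12 cut 24 h lists and are called rank-losing regions. A further 838 were touched in at least 9 of the 24 h lists and are called retained, and 173 lay between.

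The cells were CD23+ B cells from the spleen of female mice, and the assay was CUT&RUN, where a nuclease is brought by an antibody to the marked nucleosomes and the released DNA is sequenced. The mb1-cre animals were WT (mb1-cre+) or Xist fl/fl with mb1-cre+. The mb1 promoter drives Cre in the B lineage, so both genotypes carried Cre and the floxed Xist, the RNA that coats the inactive X chromosome, was deleted in vivo. The TAT-Cre cells came from WT or Xist fl/fl mice. At 0 h those cells had received no Cre, and the 24 h cells of both genotypes were given 80 µg of TAT-Cre for 45 min before the culture. All 24 h cells were stimulated with 1 µM CpG. H3K27ac and H2AK119Ub had 3 libraries in each of 8 groups of system, genotype and time, and H3K27me3 had 3 to 5. The labels number the libraries of each mark, system, genotype and time as biological replicates. They do not say whether marks or times share animals. The labels name no strain or age.

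H3K27ac, an acetyl group on lysine 27 of histone H3, sits at active promoters and enhancers. H3K27me3 is placed on the same residue by Polycomb repressive complex 2, and H2AK119Ub on histone H2A by Polycomb repressive complex 1, and both are found at silent genes. CpG DNA binds Toll-like receptor 9 in the endosome and drives resting B cells through NF-kB into growth and division. A rank within a list is a relative measure: a region can lose rank while its own peak stays, if other peaks become stronger.

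Promoter sequence was taken for the protein-coding genes whose start lay in a rank-losing region. RefSeq start sites (GRCm38.p6) matched 34 promoters of 29 such genes. Of the 5 shown, Fgr and Gpr132 are start sites that gained H2AK119Ub peaks, Plaur lies in the longest of the regions, and H2ac6 and H2bc6 are histone genes of one cluster. Each line holds the 250 bases before the start, 5′ to 3′ on the gene's strand. Capitals mark matches on either strand to any of 10 motifs: GGAAGT (ETS), GAGGAA (PU.1-like), ATGCAAAT (octamer), CAGNTG (E-box), GGGA followed after 4 bases by CC (NF-kB), TGANTCA (AP-1), GGGCGG (GC box), CCACCC (KLF), GTAAACA (forkhead) and TGACGTCA (CRE). Overlapping matches run together in capitals, as GAGGAA and GGAAGT can.
Fgr promoter, chr4:132973845-132974094 (+ strand): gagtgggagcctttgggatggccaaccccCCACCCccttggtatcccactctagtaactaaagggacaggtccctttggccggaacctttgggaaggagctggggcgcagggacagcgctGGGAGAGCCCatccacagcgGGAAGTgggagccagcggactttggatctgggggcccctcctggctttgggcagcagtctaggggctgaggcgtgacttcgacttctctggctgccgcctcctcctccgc
Gpr132 promoter, chr12:112860917-112861166 (- strand): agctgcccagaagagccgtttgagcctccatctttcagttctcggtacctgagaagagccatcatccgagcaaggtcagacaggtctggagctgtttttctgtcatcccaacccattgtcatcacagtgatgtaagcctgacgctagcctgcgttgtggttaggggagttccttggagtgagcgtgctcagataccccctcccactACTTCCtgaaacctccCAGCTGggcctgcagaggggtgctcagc
Plaur promoter, chr7:24462233-24462482 (+ strand): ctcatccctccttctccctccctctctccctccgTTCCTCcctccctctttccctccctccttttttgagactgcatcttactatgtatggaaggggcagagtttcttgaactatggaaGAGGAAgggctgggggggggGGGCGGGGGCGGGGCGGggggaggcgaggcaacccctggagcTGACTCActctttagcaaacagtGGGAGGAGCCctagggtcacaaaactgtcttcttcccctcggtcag
H2ac6 promoter, chr13:23683960-23684209 (- strand): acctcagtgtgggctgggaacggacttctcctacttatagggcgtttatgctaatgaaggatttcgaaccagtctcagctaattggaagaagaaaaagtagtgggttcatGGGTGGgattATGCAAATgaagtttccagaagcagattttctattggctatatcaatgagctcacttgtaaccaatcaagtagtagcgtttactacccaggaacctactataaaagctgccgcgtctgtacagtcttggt
H2bc6 promoter, chr13:23585971-23586220 (- strand): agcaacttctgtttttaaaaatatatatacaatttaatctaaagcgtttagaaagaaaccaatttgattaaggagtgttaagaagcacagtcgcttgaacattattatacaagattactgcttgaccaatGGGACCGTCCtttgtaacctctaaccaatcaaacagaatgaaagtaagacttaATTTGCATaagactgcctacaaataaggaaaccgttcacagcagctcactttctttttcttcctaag

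The ETS motif GGAAGT was in 35.3% of the 34 promoters, in 26.9% of the 517 promoters in retained regions and in 20.5% of the 20085 autosomal promoters in the table. The NF-kB motif was in 35.3%, 28.2% and 19.9% in the same order. The GC box was in 32.4% of the promoters in rank-losing regions, against 51.3% in retained regions and 43.4% of all. The octamer was in 2 of the 34, those of H2ac6 and H2bc6 above, and in 1.59% of all promoters. The other shares were 20.6%, 28.0% and 22.4% for GAGGAA, 47.1%, 41.6% and 42.0% for the E-box, 2.94%, 7.35% and 6.18% for AP-1, 32.4%, 36.6% and 30.5% for KLF, 5.88%, 3.09% and 2.64% for forkhead, and 0, 0.967% and 1.98% for CRE. The median ratio of observed to expected CpG was 0.381 in the rank-losing promoters, 0.55 in the retained ones and 0.547 in all. It was below 0.6 in 23 of 34 promoters (67.6%), in 53.4% of the retained and in 54.1% of all. These shares describe letters in a window of 250 bases and were not tested. Windows of one gene can overlap, so a site can be counted more than once. The 2 forkhead matches were the same site in the overlapping windows of Casp4.

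The 24 H3K27ac lists held 136440 peaks, 1336 to 10393 in a 0 h list and 3669 to 10215 in a 24 h list. The lists carry no read counts, so the depth of each library is unknown. The B cell markers Cd79a, Cd79b, Ms4a1, Pax5, Cd22, Cr2 and Fcer2a had H3K27ac peaks in every deposited list. Of 19 T cell markers, 1 to 5 had a peak in a 0 h list and 2 to 4 in a 24 h list, and 14 had none in any list, Cd3e, Cd4 and Cd8a among them. Of 18 myeloid markers, 1 to 4 had a peak at either time, and Lyz2, Csf1r and Itgam had none. No more than 1 of 10 NK cell markers and 2 of 10 erythroid markers had a peak in a list. A smaller share of cells with a mark and a lower level per cell cannot be told apart in such bulk libraries.

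Among the 1175 regions, presence in the cut 24 h lists was uneven. The strongest 24 h peaks still included 677 regions in 12 of 12 lists. At the other end, 79 regions were in none, 46 in 1 and 39 in 2. Of the 164, 73 were in all 12 cut 0 h lists, and 28 went from 12 of 12 lists to 0 of 12. Another 34 were at the lower bound of 9 of 12. These counts chose the regions, so they and all other H3K27ac differences between 0 h and 24 h are given as a description and were not tested.

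**Figure D1:**
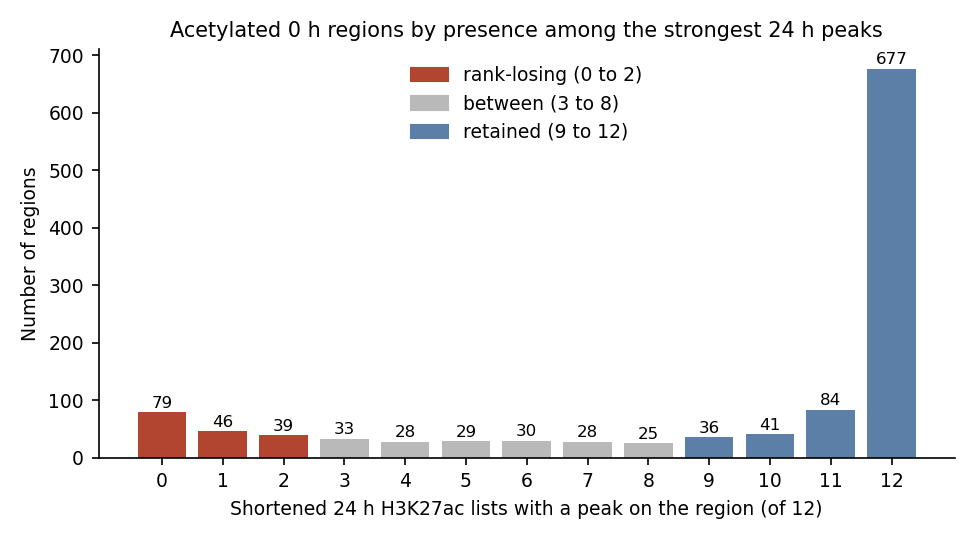
Number of regions, of the 1175 that were in at least 9 of 12 cut 0 h H3K27ac lists, by how many of the 12 cut 24 h lists had a peak on them. The 164 rank-losing regions fill the bars at 0, 1 and 2, and 677 regions stand at 12.

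Loss of rank was in most cases not loss of the peak. In the deposited lists, before any cut, 127 of the 164 regions (77.4%) had an H3K27ac peak in 12 of 12 libraries at 24 h. A further 29 had one in 9 to 11 libraries and 8 in fewer than 9, the lowest in 6. At least 50% of the region was covered in all 12 libraries for 78 regions, and in fewer than 9 for 17. Of the 838 retained regions, 832 had a peak in 12 of 12. The deposited 24 h lists were longer, with a median of 7884.5 peaks against 3183 at 0 h, so they could hold peaks of lower rank.

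The strongest peak over each region had a median rank of 939.5 at 0 h (129 to 1304 over the 164 regions) and 2211.5 at 24 h (1435 to 6153), each being the median over the libraries with a peak. For the retained regions the medians were 409.5 and 395.25. The shift was seen in all 4 combinations of system and genotype. In mb1-cre WT the library median rank went from 980 ± 36.4 to 2440 ± 87.8 (SD, n = 3), and in mb1-cre Xist fl/fl from 970 ± 12.2 to 2531 ± 130 (SD, n = 3). In TAT-Cre WT it went from 925 ± 94.7 to 2090 ± 415 (SD, n = 3), and in TAT-Cre Xist fl/fl from 925 ± 66.5 to 2010 ± 251 (SD, n = 3). The 24 h spread was wider in the TAT-Cre system, and within TAT-Cre WT replicate 3 had 34 of the 164 regions in its cut list, the most of any 24 h library.

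**Figure D2:**
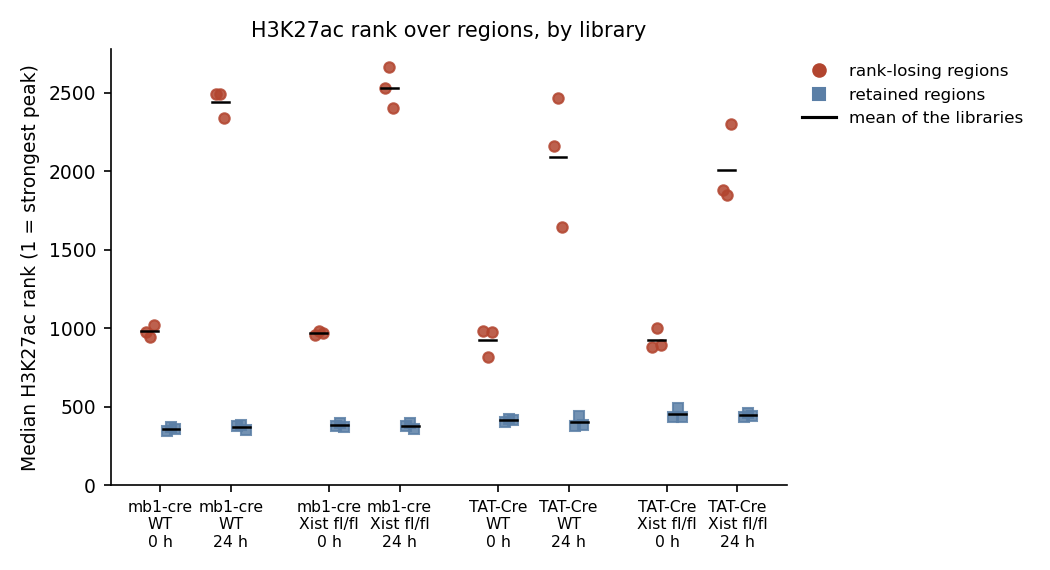
Median rank of the strongest H3K27ac peak over the 164 rank-losing regions (circles) and the 838 retained regions (squares), 1 point per library, with the mean of the 3 libraries as a line. Circles lie between 816 and 1019 at 0 h and between 1644 and 2662 at 24 h, and squares stay between 347 and 490.

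Relative to the cut list of the same library, peaks over the rank-losing regions were both lower and narrower at 24 h. Their median highest signal was 0.96 to 1.06 times the median of the cut list of the same library at 0 h and 0.644 to 0.791 times at 24 h. Their median width was 0.631 to 0.808 times that of the cut list at 0 h and 0.365 to 0.564 times at 24 h. Retained peaks stayed at 1.03 to 1.13 times (0 h) and 1.04 to 1.14 times (24 h) in height. In width they were at 1.16 to 1.35 times (0 h) and 1.15 to 1.29 times (24 h). The rank-losing regions took 2.73% to 5.80% of autosomal H3K27ac peak signal at 0 h and 1.25% to 2.3% at 24 h. On the scale of log2(ppm + 1), where ppm is relative to all autosomal peak signal of the library, the 24 h minus 0 h difference had a median of -1.12 over the 164 regions, with 158 below 0. It was -0.86 over the 173 regions between the classes, 153 below 0, and -0.47 over the retained regions, 712 of 838 below 0. Over all 1175 it was -0.57, with 1023 below 0. The lists held a median of 3183 peaks at 0 h and 7884.5 at 24 h, and the part of list length in this difference was not tested.

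Plaur, the urokinase receptor, gave the longest region, 26884 bp at chr7:24438717-24465600 (mm10), which holds the start of the gene. Its rank over the 12 libraries at 0 h was 89 at the lowest, 129 at the median and 195 at the highest. At 24 h it was 438, 1842 and 5430. The times did not overlap. TAT-Cre WT replicate 3 and mb1-cre WT replicate 2, at 438 and 860, were the 2 libraries at 24 h that kept it in the cut list. The peak itself was present in 12 of 12 libraries at 24 h, and its median width went from 29951 to 13274 bp.

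A pair of long intergenic stretches lay far from the nearest coding gene. The first, 25709 bp at chr10:96387056-96412764, was 204237 bp from Btg1, an antiproliferative gene highly expressed in resting lymphocytes. Its rank was 33, 273.5 and 1280 at 0 h (lowest, median, highest) and 1313, 2693 and 6032 at 24 h. The single cut 24 h list that held it was that of TAT-Cre WT replicate 3. The second, 24800 bp at chr13:82892555-82917354, was 586663 bp from Mef2c, a transcription factor of the B cell response. It had a peak in 12 of 12 libraries at 0 h, ranked 215 to 703, and in only 6 of 12 at 24 h, where the ranks ran from 1107 to 6678. A second region near Mef2c, at chr13:83015923-83024605, had a peak in 12 libraries at 0 h and 8 at 24 h. Its rank went from a median of 787 to 5492.5. The Mef2c pair showed the larger loss in that peaks were missing altogether in part of the 24 h libraries.

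**Figure D3:**
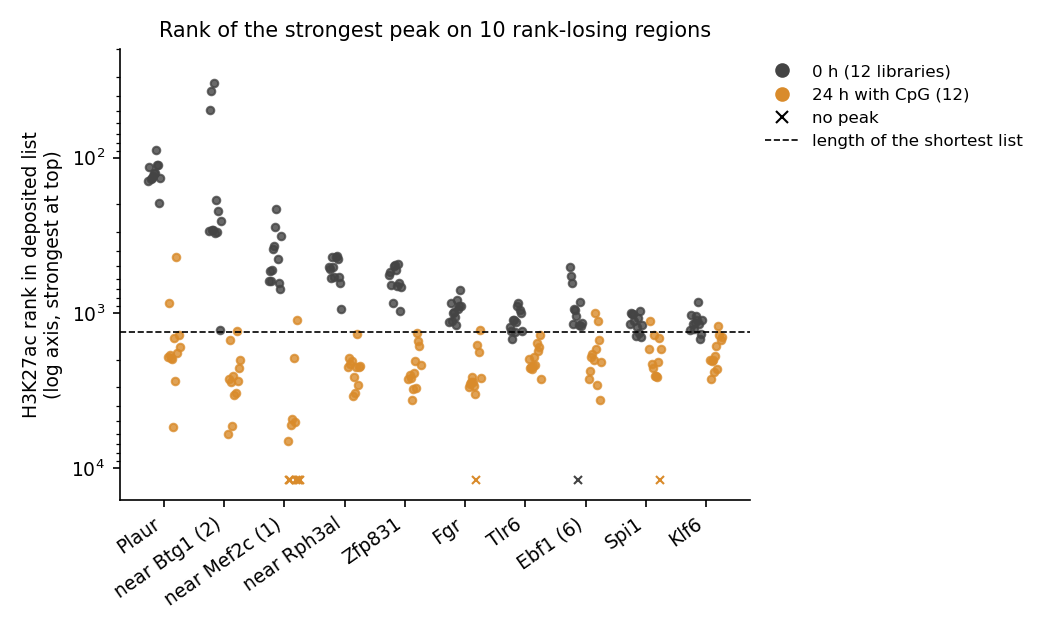
Rank of the strongest H3K27ac peak over 10 rank-losing regions in each of 12 libraries at 0 h (dark) and 12 at 24 h (orange), on a log axis with the strongest at the top. Crosses at the bottom are libraries with no peak, and the dashed line marks rank 1336. Plaur lies at 89 to 195 at 0 h, and the region near Mef2c has no peak in 6 libraries at 24 h.

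Of the B cell identity genes, transcription factors and surface proteins that mark mature follicular cells, 24 of 25 touched one of the 1175 regions and 23 touched a retained one. Ebf1, a factor needed for B cell commitment, was the only one that touched a rank-losing region. That region, chr11:44943682-44953955, lies within the gene. It ranked 504 to 1211 in 11 libraries at 0 h and 1007 to 3638 in 12 at 24 h, so the times overlapped. The same gene was touched by 5 retained regions, and its start was under a cut peak in 11 of 12 lists at 0 h and 12 of 12 at 24 h. No rank-losing region touched any of the 19 genes of the naive state and quiescence that matched, 16 homing, 23 B cell receptor signalling, 11 MHC class II, 30 activation, 21 cell cycle or 12 plasma cell genes. None touched a T cell, myeloid, NK cell, erythroid or housekeeping gene of the lists. Of the first 7 lists, 8, 8, 17, 9, 7, 1 and 2 genes in the same order touched a retained region. Over all 20665 autosomal protein-coding genes, 117 touched a rank-losing region and 775 a retained one.

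Some listed genes were the nearest coding gene of a rank-losing region that touched no coding gene. They were Btg1, Zfp36l1 and Ets1 of the quiescence list, S1pr1 (the receptor that lets lymphocytes leave tissue), Pik3r1 (the regulatory subunit of PI3 kinase), and the plasma cell genes Prdm1 and Sdc1. The region near Sdc1, chr12:8839255-8848794, ranked 569, 760 and 968 at 0 h and 1507, 2706 and 6188 at 24 h. The region nearest to Prdm1 lies in the long non-coding gene Gm35154, 99681 bp away, and ranked 374, 525 and 627 at 0 h and 992, 1845.5 and 3220 at 24 h. The region near S1pr1, 83250 bp away, ranked 490 to 1381 in 11 libraries at 0 h and 1898 to 3208 in 12 at 24 h. The region 9620 bp from Pik3r1 ranked 645 to 1493 at 0 h and 1771 to 3805 in the 9 libraries with a peak at 24 h. A nearest gene is a position, and no link to its expression was measured.

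Among the 28 regions that went from 12 of 12 lists to 0 of 12, the 10 with the best median rank at 0 h were near Rph3al, in Zfp831, near Myo10, in Gm20098, near Ccr1, in 1700113H08Rik, near Nid1, at the start of Gm40654, in Lamc1 and near Sdc1. The region near Rph3al, chr11:75973694-75988808, ranked 428, 516 and 939 at 0 h and 1367, 2229 and 3450 at 24 h. Zfp831, a zinc finger gene, held a region ranked 487, 608.5 and 966 at 0 h and 1348, 2469 and 3629 at 24 h. The region 2213 bp from Ccr1, a chemokine receptor gene, ranked 124 to 1178 at 0 h. It had a peak in 8 of 12 libraries at 24 h, ranked 2807 to 5461. Lamc1, a laminin chain gene, ranked 583 to 1045 at 0 h and 1348 to 2888 at 24 h. All 12 libraries still had a peak at 24 h near Rph3al and in Zfp831 and Lamc1.

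The other long regions were Sorl1 (19202 bp), Armc9 (18545 bp), Bend5 (16878 bp), 1700113H08Rik (15627 bp), near Rph3al (15115 bp), Ildr1 (14656 bp) and near Psma1 (14278 bp). In Armc9 the median peak width over the region went from 21687 to 6261 bp and the median share of the region covered at 24 h was 33.8%. In Bend5 the widths were 19031 and 16556 bp, so the narrowing was uneven among the regions. Sorl1, a sorting receptor gene, kept its peak in 12 of 12 libraries and went from a median rank of 514 to 1679.

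Other start-site genes are named after their values were seen, for their known roles. Tlr6, a Toll-like receptor for bacterial lipopeptides, ranked 864, 1126.5 and 1471 at 0 h and 1383, 2074.5 and 2684 at 24 h. Fgr, a Src family kinase, ranked 710, 964.5 and 1197 at 0 h and 1291 to 3347 in 11 libraries at 24 h. Satb1, a chromatin organizer, ranked 404 to 1693 in 11 libraries at 0 h and 979 to 3214 at 24 h, and a second region, in Gm20098, lay 65139 bp from it. Klf6, a zinc finger factor, ranked 851 to 1470 at 0 h and 1207 to 2665 at 24 h. Spi1, which encodes PU.1, held a region within its gene that ranked 976 to 1436 at 0 h and 1124 to 2600 in 11 libraries at 24 h. Fgr did not overlap between times, and Tlr6, Satb1, Klf6 and Spi1 did. H2ac6 and H2bc6, histone genes whose transcripts rise in dividing cells, ranked 875 to 1463 and 531 to 1383 at 0 h and 1448 to 3132 and 897 to 2475 at 24 h.

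At the edge of the rule, 39 regions were in exactly 2 cut 24 h lists and 33 were in exactly 3. Just inside were Plaur, Sorl1 and Bend5, the widest of those in 2 lists. Just outside, in 3 lists, were regions in Tmem163, near Dtx4 and at Ccr1l1, 18991, 16549 and 16542 bp wide. The choice of ranking also set which regions were found. Ranked by highest instead of total signal the rule gave 214 regions, which overlapped 73 of the 164. With the top 1000 peaks it gave 128, which overlapped 57 of the 164.

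Position relative to genes was counted on the 161 rank-losing and 815 retained regions of chromosomes in the start-site table. A transcription start was inside 43 of the 161 (26.7%) and 422 of the 815 (51.8%). Gene bodies without a start held 79 (49.1%) and 344 (42.2%), and 38 (23.6%) against 44 (5.40%) were intergenic. A start of a protein-coding gene lay in 27 (16.8%) and 366 (44.9%). Regions between the classes were intermediate, with a transcription start in 60 of 169 (35.5%) and 29 intergenic (17.2%). The rank-losing regions were 9348.5 bp wide at the median (4265 to 26884), and the retained ones 16337 bp. The shares were not adjusted for width, and both are properties of the chosen regions that carry no test.

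**Figure D4:**
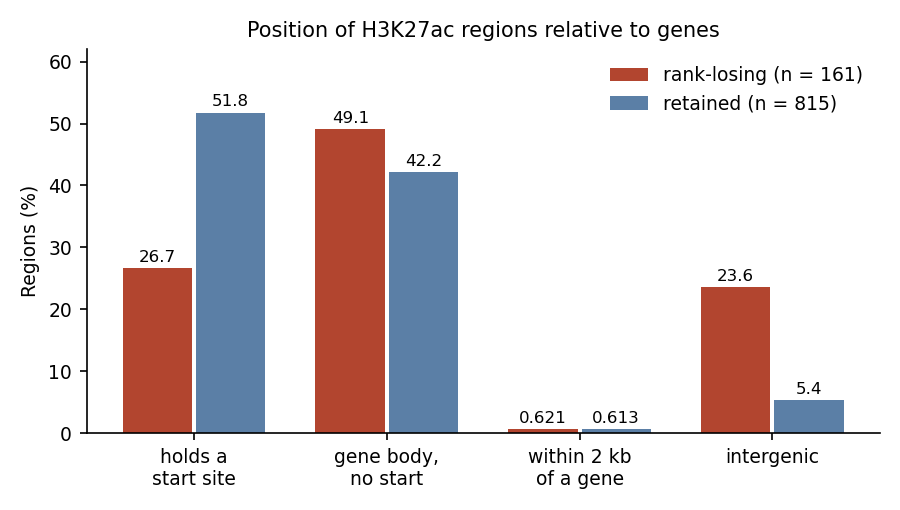
Share of 161 rank-losing and 815 retained H3K27ac regions that hold a transcription start, lie in a gene body without one, lie within 2 kb of a gene, or are intergenic. Starts are in 26.7% and 51.8%, and 23.6% and 5.40% are intergenic.

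Of the 117 protein-coding genes touched, 29 had a start inside a rank-losing region and 64 had a known start elsewhere. The start of 15 of these 64 was under a deposited H3K27ac peak in at least 9 of 12 lists at 0 h, and that of 21 at 24 h. Among the strongest 1336 peaks the numbers were 6 and 5. Retained regions touched 16 of the 117 genes, Ebf1 with 5, Camk2d with 3, and Arhgef3 and Hivep2 with 2 each. A region new at 24 h by the mirrored rule touched 1, Tbkbp1. Rank-losing regions lay within 200 kb of each other in 7 pairs, near S1pr1 and Dph5, at Bend5 and Agbl4, at H2bc6 and H2ac6, near Mef2c, near Map3k1, in Trio and at Satb1. Of the 164 regions, 4 lay within 100 kb of one of the 146 new regions.

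H2AK119Ub, which the choice of regions did not use, rose at 56 of the 133 regions that could be tested and fell at 1. A deposited H2AK119Ub peak touched 2.44% to 54.3% of the 164 regions in the 0 h libraries (median 21.3%) and 34.1% to 72.0% in the 24 h libraries (median 58.5%). In the exact stratified test, 133 of the 164 regions had a peak in at least 3 libraries and none in at least 3, and could be tested. Presence rose with time at 56 of the 133 (42.1%) at an adjusted p below 0.05. Over all 885 regions tested the share was 42.1%, and over the retained ones 262 of 621 rose (42.2%), so the count for rank-losing regions was at the background. Presence fell at 1 region, within Chd7, a chromatin remodeller, against 0.678% over all regions tested. Chd7 had a peak in 6 of 12 libraries at 0 h and 0 of 12 at 24 h (exact stratified test, adjusted p = 0.0467). It was not called in lists cut to 2004 peaks, with 50% of the region covered or with no filter on libraries, nor without mb1-cre WT replicate 2 at 0 h or without TAT-Cre WT replicate 2 at 0 h.

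List length moved with time for this mark. The 0 h lists held 2004 to 40688 peaks and the 24 h lists 9334 to 37328, and 4 of the 0 h lists held 2004 to 2804 peaks and touched 4 to 8 of the regions. Without those 4 lists 25 of 124 regions rose and 1 fell, with 20.5% and 0.96% over all regions. With each list cut to its strongest 2004 peaks, 8 of 20 regions rose and 0 fell, with 29.3% and 5.05% over all 99 tested. These 8 were near Crb2, at Fgr, at Gm38810, in Arhgef10, at Mlycd, near Sfi1, near Cdkn2aipnl and at Gpr132.

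The 5 regions named by smallest p touched no coding gene, but Plaur, Gmfg, Camk2b, Trio, 6030468B19Rik and a region near Rph3al had the same p as the last pair of them. In the long non-coding gene C030018K13Rik (chr5:64483647-64492647) an H2AK119Ub peak was present in 0 of 12 libraries at 0 h and 11 of 12 at 24 h. Near Lmntd1 it was present in 1 and 12, and in Gm36660, 41518 bp from Zfp36l1, in 0 and 11 (each adjusted p = 0.0012, exact stratified test). Gm32039 went from 2 to 12 and the region near Plekho1 from 1 to 11 (each adjusted p = 0.00221, exact stratified test). In lists cut to 2004 peaks neither of this pair was called (adjusted p = 0.0535 for Gm32039 and 0.281 near Plekho1, exact stratified test). C030018K13Rik and the region near Lmntd1 had a peak in 0 cut lists at either time. Gm36660 had one in 0 cut lists at 0 h and 1 at 24 h. None of these could be tested in the cut lists. With 50% of the region covered C030018K13Rik was not called (adjusted p = 0.0778, exact stratified test). The missing library at 24 h was of mb1-cre Xist fl/fl for C030018K13Rik and of TAT-Cre Xist fl/fl for Gm36660 and near Plekho1.

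Start-site genes were among the calls too. At Fgr a peak was present in 4 of 12 libraries at 0 h, 1 in each group, and in 12 of 12 at 24 h (adjusted p = 0.0134, exact stratified test). It was among the strongest 2004 peaks in 0 libraries at 0 h and 10 at 24 h (adjusted p = 0.00247). Gpr132, which encodes a G protein-coupled receptor of lymphocytes, went from 4 to 12 libraries (adjusted p = 0.00903, exact stratified test), and from 0 to 9 among the strongest 2004 (adjusted p = 0.0045). The Fgr and Gpr132 promoters are printed above. Plaur went from 2 to 12 libraries (adjusted p = 0.00221, exact stratified test), but its rise was not called in the cut lists (adjusted p = 0.16). Tlr6 went from 2 to 10 (adjusted p = 0.0165, exact stratified test), but it was in 0 cut lists at either time and could not be tested there. By position, 14 of 34 tested start-site regions rose (41.2%), 24 of 60 in gene bodies (40.0%) and 15 of 36 intergenic ones (41.7%). Over all regions tested the shares were 44.3%, 40.7% and 36.8%.

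Coverage by H2AK119Ub peaks was set beside that of the retained regions. At least 50% of the region was covered in a median of 4.88% of rank-losing and 1.25% of retained regions at 0 h, and 29.3% and 11.5% at 24 h. The 173 regions between these classes had intermediate medians of 2.02% at 0 h and 21.1% at 24 h. The rank-losing share was above the retained share in 12 of 12 libraries at each time. This held for regions touched, regions covered by at least 50% and regions touched in lists cut to 2004 peaks. The difference between the classes was not tested, since regions of one library are not replicates, and no adjustment was made for the width of the regions. By the 50% measure 37 of 78 tested regions rose with time (47.4%) and 0 fell, with 44.8% and 0.952% over all 315 tested.

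**Figure D5:**
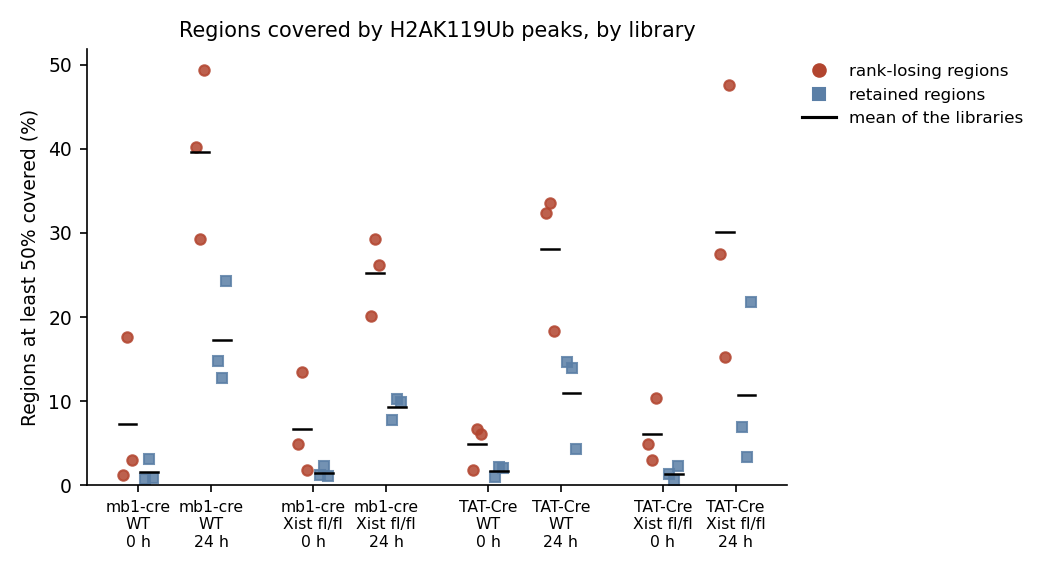
Share of the 164 rank-losing (circles) and 838 retained regions (squares) with at least 50% of their width under H2AK119Ub peaks, 1 point per library, with the mean of the 3 libraries as a line. Circles run from 1.22% to 17.7% at 0 h and from 15.2% to 49.4% at 24 h.

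H3K27me3 peaks were rare at acetylated regions of every class, the rank-losing ones included. No H3K27me3 peak was found in any of 15 libraries at 0 h at 157 of the 164, and in any of 14 at 24 h at 158. These are 95.7% and 96.3% of the 164. Over all 1175 regions, 1151 had none at 0 h and 1152 at 24 h. A library touched 1 to 6 regions at 0 h and 1 to 6 at 24 h. Only 13 of the 1175 regions could be tested, 5 of them rank-losing, and 1 of the 5 rose, against 7.69% of those tested that rose and 7.69% that fell. The region that rose, chr9:121671155-121680755, touches Vipr1, the receptor for vasoactive intestinal peptide, and Sec22c. A peak was present in 1 of 15 libraries at 0 h and 8 of 14 at 24 h (adjusted p = 0.0158, exact stratified test). At 24 h it was in 4 of 4 mb1-cre WT, 3 of 4 mb1-cre Xist fl/fl, 0 of 3 TAT-Cre WT and 1 of 3 TAT-Cre Xist fl/fl libraries. The difference between the systems was not tested. The call was lost with at least 50% of the region covered and in lists cut to 1955 peaks, where the region could not be tested, and with limma (adjusted p = 1).

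At the Vipr1 region H2AK119Ub was present in 7 of 12 libraries at 0 h and 12 of 12 at 24 h (adjusted p = 0.0816, exact stratified test), and H3K27ac ranked 719 to 1209 at 0 h and 2074 to 6979 at 24 h, with a peak in every library.

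A few regions were touched by peaks of all 3 marks in many libraries. A touch can be as short as 1 bp, so it does not show that the marks share bases or cover the region. H3K27me3 peaks covered at least 50% of the width in at most 1.22% of rank-losing regions in any library. At the start of Hjurp, the chaperone that places the centromeric histone, H3K27me3 was present in 15 of 15 and 13 of 14 libraries and H2AK119Ub in 12 of 12 at both times. A region 23526 bp from Sfi1, at chr11:3100032-3108324, had H3K27me3 in 10 of 15 libraries at 0 h and 14 of 14 at 24 h (adjusted p = 0.206, exact stratified test). Ift172, an intraflagellar transport gene, had it in 7 and 9 libraries, and Tbkbp1, a binding partner of the kinase TBK1, in 6 and 9. H2AK119Ub was present at Ift172 and Tbkbp1 in 11 and 12 libraries each. Rraga, a GTPase that signals amino acids to mTOR, had H3K27me3 in 2 libraries at 0 h and 1 at 24 h (adjusted p = 1, exact stratified test).

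Xist genotype did not give a call at any region, and the test of presence left little room for one. The comparison used 18 H3K27ac libraries, 9 of each genotype, and left out the TAT-Cre cells at 0 h, which had met no Cre. Deposited peaks were present or absent in at least 3 libraries at only 15 regions, 13 of them rank-losing, and 0 were called by the exact stratified test (0% of those tested). At an unadjusted p below 0.05 there were 0 as well. The lowest p was in Gm36660, with a peak in 100% of WT and 55.6% of Xist fl/fl libraries as means over strata (p = 0.05, adjusted p = 0.75, exact stratified test). In Gm46762, near Dph5 and near Ccr1 the shares were 88.9% and 66.7%, and near Dmac1 77.8% and 55.6%. On the log2 signal, limma called 0 of the 1175 regions, with an unadjusted p below 0.05 at 439 of them and at 36 of the 164. Of these 36, 35 were higher in Xist fl/fl, while the presence shares named above were lower there. The direction at the rest of the 439 was not counted, so this is not shown to be particular to rank-losing regions. The median signal of retained regions in TAT-Cre at 24 h was 320 to 418 ppm in Xist fl/fl and 267 to 328 in WT. In mb1-cre it was 202 to 255 and 217 to 229 at 24 h, and 316 to 397 and 288 to 373 at 0 h. The smallest limma adjusted p among the 164 was shared by Pdcd1lg2, Sarnp, Arhgef10 and Prkce. In Pdcd1lg2, the gene of the checkpoint ligand PD-L2, Xist fl/fl was 0.46 higher (SE 0.10, limma adjusted p = 0.0903). The TAT-Cre lists at 24 h held 3669 to 6244 peaks in Xist fl/fl and 5456 to 10009 in WT. In mb1-cre at 24 h they held 7409 to 10215 and 8317 to 10004. The part of list length in the genotype differences was not tested. Most regions had a peak in nearly every library, so presence could be compared at few of them. In Gm36660 every missing peak was in Xist fl/fl, so its p = 0.05 in the exact stratified test was the lowest its counts allow. The lack of calls therefore does not decide whether genotype changes presence.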

How the data were processed

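The authors deposited 1 CUT&RUN peak list per library, 77 in all, of mm10 intervals. Per the submitters' processing notes, Trimmomatic 0.32, Bowtie2 2.3.4.1, Picard and deepTools 3.5.1 were used. The deposited list names carry the SEACR terms norm and relaxed, with no version, control or scaling named in these sources. Values are signal, as deposited by the authors: total and highest coverage per peak, on a scale not shown to be shared between libraries, so ranks within a list were used.

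The regions and gene lists were chosen with earlier results of these data known. Presence was a peak touching a region by 1 bp. It was compared by a two-sided exact conditional test stratified by system and genotype (or by system and time), in regions where 3 or more libraries had a peak and 3 or more had none. Benjamini-Hochberg adjustment ran over all regions tested, and calls were made below 0.05. limma 3.58.1 on log2(signal in ppm of autosomal peak signal + 1) was the other tool. Where a region has no deposited peak, its signal was taken as 0.

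Genes came from a RefSeq table (GRCm38.p6, 21631 protein-coding and 12697 long non-coding), with 2 kb on either side, and start sites from a RefSeq promoter table that held 16457 of the 20665 autosomal protein-coding genes. Named regions were those touching a listed gene, the 10 longest, the 10 with the largest fall in number of lists (ties, 28 at 12 to 0, by better median rank at 0 h), up to 5 with the smallest p of each test, and the widest at the edge of the rule. Replicate 5 of mb1-cre Xist fl/fl for H3K27me3, titled naive but described as stimulated under treatment, was placed at 0 h. Same-numbered replicates did not deviate together for every pair, so no fit was blocked in the main tests. Python 3.11.15, numpy 2.4.6, pandas 2.3.3 and scipy 1.17.1 were used.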

Additional observations from a re-analysis of the deposited data

Results flagged for a closer look

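The number of rank-losing regions touched by H3K27me3 peaks was 6 in 1 mb1-cre WT library at 24 h and 5 in each of the other 3, a gap that stands out only because the other 3 were equal. The difference is 1 region. A chance rate of about 1 in 20 groups of this size is meant for continuous values. For small counts with ties the rate was not worked out.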

How the results depend on the processing

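The rule gave 164 regions, and 167 to 187 when 1 library was left out with the limits set at 8 of 11 or 2 of 11 lists, which loosens the rule, so all 164 were among them. In deposited lists of full length it gave 29, none of them among the 164. The number of rank-losing regions with a called H2AK119Ub change was 57, and 54 to 68 with 1 library left out. It was 8 in cut lists, 37 with 50% of the region covered, and 26 without the 0 h lists under 3000 peaks. The count over all regions moved with it, from 379 to 34, 144 and 179. The H3K27me3 count of 1 became 0 in cut lists, 0 with 50% covered and 0 with limma; it was 1 with any 1 library left out and with replicate 5 moved to 24 h. The genotype count was 0 throughout, and 0 with any 1 library left out, though presence in deposited lists left little room for a call. Of the results for single regions in settings where the region could be tested, 39 kept their side of the threshold, 6 lost the call and 0 reversed. Settings where a region could not be tested, as for Chd7 and Vipr1 in cut lists, are not in this tally. The 39 include regions with no call in the main test, some of them with a difference of 0 in cut lists.

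With the replicate number as a block, the H2AK119Ub count was 49, the H3K27me3 count 0 (Vipr1, adjusted p = 0.0508) and the genotype count 0. Chd7 lost its call (adjusted p = 0.0698). The correlation of same-numbered samples ran from -0.050 to 0.047 for H2AK119Ub, -0.024 to 0.089 for H3K27ac and -0.593 to 0.714 for H3K27me3 between times, so the numbers do not show a pairing. Where a count moved, the cause was not tested beyond what the setting itself removes. Peak lists hold no depth, and a mark below the calling threshold cannot be told from one that is absent.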

Other observations

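On the X chromosome, which the rule leaves out, 21 regions were in at least 9 of the 12 cut 0 h lists and 3 of them were in at most 2 of the 12 cut 24 h lists. One touched Kdm6a (chrX:18175175-18192607), which encodes an H3K27 demethylase. It was in 0 cut 24 h lists and had a deposited peak in 10 of 12. One touched Tsc22d3 (chrX:140536472-140550419), a glucocorticoid-induced gene of resting lymphocytes, in 0 cut lists and 12 deposited ones. The third, in Gm39549 near Tmsb4x (chrX:167170733-167183313), was in 1 and 12.

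The log2 signal difference was above 0 at 6 of the 164 regions: Hivep2 (1.21), Agbl4 (0.53), Slc36a3 (0.18), near S1pr1 (0.13), Camk2d (0.05) and Mta3 (0.02). At the region near S1pr1 the median peak width went from 12031 to 6246 bp, while the signal on the region itself was 86.1 and 72.4 ppm of autosomal peak signal at the median. Each of the 6 had no deposited peak in 1 to 3 of the 12 libraries at 0 h, where its signal was taken as 0.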
